A study of Drosophila melanogaster with 3 samples.

Results

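The genes described are the ecdysone receptor gene EcR and 9 other nuclear receptor genes of Drosophila melanogaster, namely usp, Eip75B, Eip78C, Hr3, Hr4, Hr38, Hr39, Hr78 and ftz-f1. They are 10 of 13945 protein-coding genes on the 6 chromosome arms used, and they were taken as a list of gene names. For each gene every peak was taken whose summit, the base of highest signal, lay between 5 kb upstream of its outermost start site and 2 kb past its end. These windows cover 515 kb and hold 70 of the 10239 summits in the list of reproducible peaks, called the IDR list after the irreproducible discovery rate used to make it. The peaks mark where the protein CG8159, a member of the zinc finger family with a ZAD domain, was recovered on chromatin by ChIP-seq. All samples came from 1 transgenic fly line that stably expresses CG8159 with GFP at its C terminus, and the precipitation was against GFP per the sample description, although the antibody label names CG8159. There is 1 group of 3 biological replicates, each a separate collection of whole pupae of the age label 24 hours, with males and females pooled. No other genotype, treatment or age was included, tissues and cell types cannot be told apart in whole animals, and the labels do not give the promoter or level at which the tagged protein was made.

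Nuclear receptors are transcription factors that bind DNA through zinc fingers and that in many cases are switched by a small ligand. The steroid 20-hydroxyecdysone drives moulting and metamorphosis in insects by binding the heterodimer of EcR and Ultraspiracle, the product of usp, which then turns on early genes that include Eip75B and other nuclear receptors. Hr3, Hr4, ftz-f1 and their relatives act one after another in this cascade and time the steps between larva, pupa and adult.

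The sites of the protein in these genes were mostly intronic (51 of 70, against 44.5% of all IDR summits), and a few of them were among the strongest in the genome. The strongest lay in intron 2 of Hr4 and ranked 4 of 10239 by the authors' signal. The next by gene lay in intron 3 of Eip78C, with rank 55, and intron 3 of Eip75B, with rank 341. Of the 10 genes, 6 had a summit within 500 bp of one of their own start sites, here called occupied, against 22.9% of protein-coding genes. Hr39 had no summit in the IDR list. To show what the sites look like, the reference sequence of the summit base and 50 bases on each side is given for these 3 intronic sites, for the promoter sites of Hr78 and of usp, and for the promoter sites of Hr4 and ftz-f1, which had the lowest A/T content of the set. All are on the plus strand of dm6, 5′ to 3′, and capitals mark runs of at least 6 bases that are all A or T. The order is the Hr4 intron at chrX:1951861-1951961, the Eip78C intron at chr3L:21253848-21253948, the Eip75B intron at chr3L:18009126-18009226, the Hr78 promoter at chr3L:21497019-21497119, the usp promoter at chrX:2041388-2041488, the Hr4 promoter at chrX:1941826-1941926 and the ftz-f1 promoter at chr3L:18765769-18765869.
Hr4 intron: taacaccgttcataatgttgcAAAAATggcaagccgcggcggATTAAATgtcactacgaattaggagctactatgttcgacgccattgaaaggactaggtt
Eip78C intron: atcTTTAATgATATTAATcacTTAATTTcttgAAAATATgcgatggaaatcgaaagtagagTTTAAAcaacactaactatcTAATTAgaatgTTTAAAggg
Eip75B intron: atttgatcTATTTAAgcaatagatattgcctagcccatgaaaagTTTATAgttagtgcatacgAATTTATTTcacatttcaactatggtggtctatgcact
Hr78 promoter: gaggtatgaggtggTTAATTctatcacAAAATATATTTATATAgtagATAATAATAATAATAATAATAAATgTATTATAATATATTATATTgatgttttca
usp promoter: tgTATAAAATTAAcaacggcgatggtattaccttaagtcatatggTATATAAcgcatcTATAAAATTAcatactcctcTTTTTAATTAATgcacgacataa
Hr4 promoter: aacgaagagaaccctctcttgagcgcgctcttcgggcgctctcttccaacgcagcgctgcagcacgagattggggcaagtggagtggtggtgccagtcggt
ftz-f1 promoter: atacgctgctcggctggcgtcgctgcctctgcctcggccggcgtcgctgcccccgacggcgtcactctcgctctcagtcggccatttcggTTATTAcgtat

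The Hr78 window reads 83.2% A or T, with 65 bases in 4 runs. The Eip78C window reads 74.3%, with 46 bases in 7 shorter runs, the usp window 71.3% and the Eip75B window 68.3%. The Hr4 intron, the strongest site of the 70, reads 56.4%. The Hr4 and ftz-f1 promoter windows read 38.6% and 34.7%. The Hr78, Eip78C and usp windows were above the median of 70.3% over all IDR rows. The others were below it, among them the strongest site. Part of these windows were chosen for their low A/T content, so they do not give shares among the 70.

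Introns are numbered along 1 transcript of each gene, namely EcR-RA, Eip75B-RF, Eip78C-RA, Hr3-RD, Hr4-RK, Hr38-RB and ftz-f1-RB. The values come from the authors' peak lists. The 3 replicate lists and a list called on all replicates together hold 30000 peaks each, and the IDR list, which keeps peaks whose ranks repeat between replicates, holds the 10239 strongest of the pooled list. The deposited signal is the authors' own value per peak, with no read numbers, so the depth is unknown, and signal and rank are used only within a list. Replicate values below use the 10239 strongest peaks of each replicate unless a whole list is named, and intervals are 95% Wilson intervals that cover counting error only. At the edge of the IDR list the last row had signal 246 and the first row left out had 246 as well. That first row left out lay in the Eip75B window, 6214 bp upstream of a start site, and the lowest row among the 70 had signal 249 with rank 10140.

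The windows held 13.6 IDR summits per 100 kb, against 8.18 over the windows of all protein-coding genes. The strongest peaks of replicates 1, 2 and 3 put 77, 69 and 66 summits there, a mean of 70.7 ± 5.69 (SD, n = 3). The numbers were uneven between genes. EcR, Eip75B, Hr4 and ftz-f1 held 57 of the 70, each with at least 10, a number that 1.08% of protein-coding genes reached (151 genes). Among the strongest peaks of replicates 1, 2 and 3, EcR had 13, 13 and 10. It fell below 10 when 1 replicate was left out and both others had to hold an IDR summit. EcR then had 8 in each case, while Eip75B, Hr4 and ftz-f1 had between 10 and 17. Hr4 fell to 8 within the gene alone, without flanks. It fell to 9 when the nearest protein-coding start had to be its own. EcR, Eip75B and ftz-f1 kept at least 10 in both cases. In all 9 of the 10 genes had an IDR summit in the window, against 50.5% of protein-coding genes.

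Gene length goes with the number of summits, so the counts were also read per length. Of the 10 genes, 8 have windows over 25 kb, as do 1143 protein-coding genes. Those 1143 had a median of 0.685 summits per 10 kb (quartiles 0.243 and 1.39), and 82.6% of them held at least 1 summit. The 8 receptor genes had a median of 1.24 per 10 kb, 6 of them were above the median of the long genes and 4 above its upper quartile. Of the 8, 4 were occupied at a start site as defined above, against 41.3% of the 1143. The limit of 25 kb was chosen after the values were seen, and the comparison is a description of these genes without a test.

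**Figure D1:**
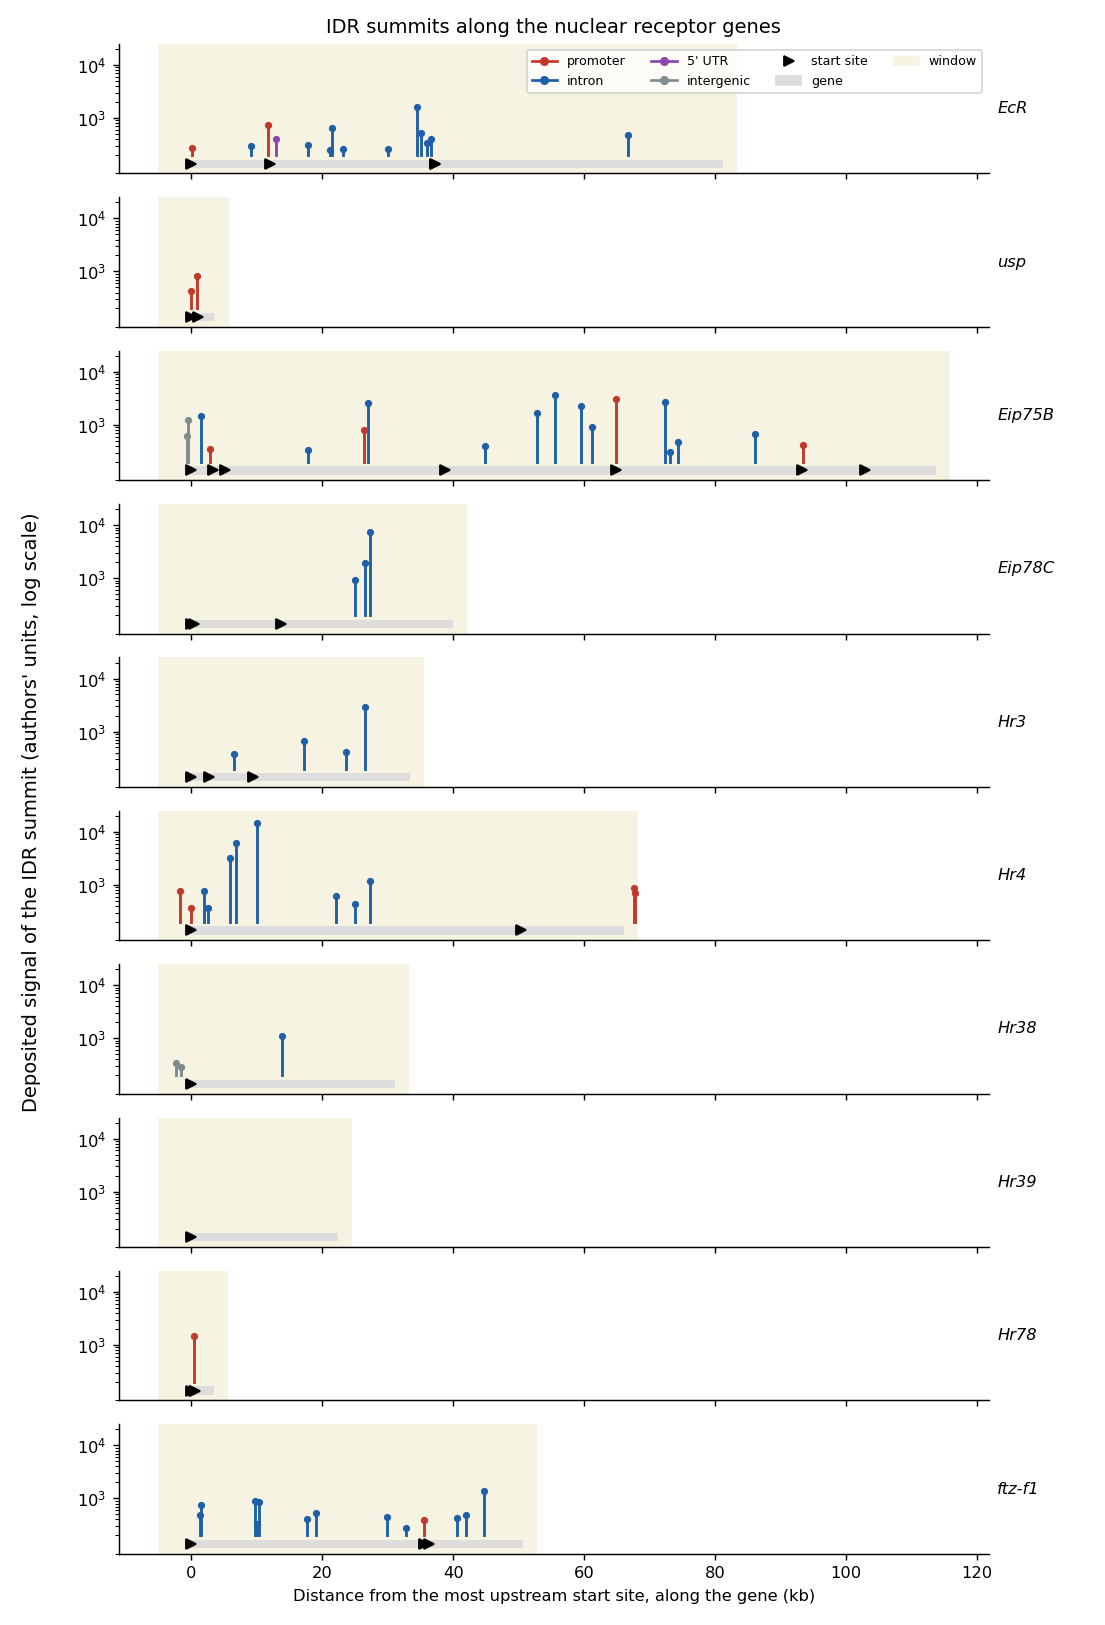
IDR summits along each of the 10 genes, in kb from the most upstream start site in the direction of transcription, with the deposited signal on a log scale. Lines with dots are summits coloured by location, triangles are start sites, grey bars are genes and shaded areas are the windows. The tallest lines are in introns of Hr4 (15035 and 6230) and Eip78C (7588), and the Hr39 panel is empty.

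**Figure D2:**
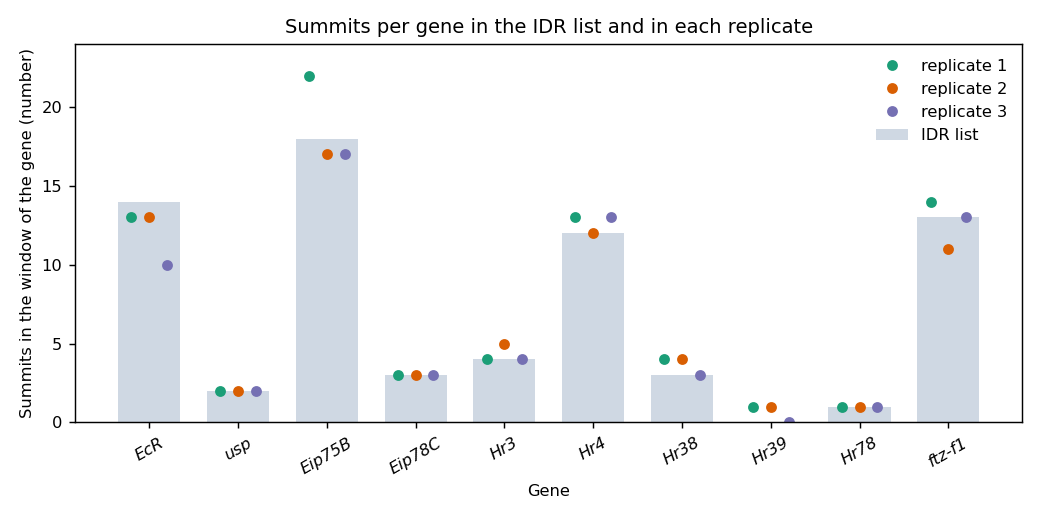
Number of summits in the window of each gene. Bars give the IDR list and dots the 10239 strongest peaks of each replicate. Eip75B is highest in each list, with 18 summits in the IDR list and 22, 17 and 17 in the replicates, and Hr39 has 0 in the IDR list and 1, 1 and 0 in the replicates.

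EcR encodes the receptor that binds the hormone. It lies on 2R at 6087873 to 6169087 (dm6, minus strand) and its window held 14 IDR summits, more than 99.5% of protein-coding genes. Per 10 kb the number was 1.59, which places it above 80.8% of genes. The strongest peaks of replicates 1, 2 and 3 gave 13, 13 and 10 summits, a mean of 12.0 ± 1.73 (SD, n = 3). Most of these sites were weak and varied between replicates. Their median signal was 366, only 3 were in the stronger part of the IDR list above its midpoint, and 6 of 14 were held by all 3 replicates, that is, overlapped by at least 1 bp by one of the strongest peaks of each, against 78.3% of all IDR rows. A further 6 were held by 2 replicates and 2 by 1.

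Among the 4 start sites of EcR, 2 had a summit within 500 bp, where 21.5% of the start sites of protein-coding genes had one. The outermost, of transcript EcR-RA, had one 3 bp downstream with signal 268 and rank 9488, where the nearest peaks of replicates 1, 2 and 3 ranked 12099, 6285 and 12043. This site was therefore held by replicate 2 alone. The start shared by EcR-RD and EcR-RE had a summit 332 bp upstream with signal 752 and rank 3562, and the replicates ranked it 3857, 3312 and 3310. The start of EcR-RB and EcR-RC fell just outside the limit, with a summit 535 bp upstream of signal 399.

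The strongest EcR site was in intron 3, at 6134691, with signal 1642 and rank 1446. Its replicate signals were 605, 526 and 515 and its ranks 1655, 1255 and 1398, so all 3 replicates placed it among their upper peaks. The nearest start site was that of CG14589, a protein-coding gene that lies within EcR, 2612 bp away, while the nearest EcR start was 2769 bp downstream of it. Of the 14 summits, 5 fell within 10 kb of one another from 6132457 onward. Between 6102393 and 6132457, 30.1 kb on the side of the gene's end, there was none.

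The partner gene usp encodes Ultraspiracle, the fly RXR, without which EcR does not bind its response elements well. It is short, at X 2038798 to 2042311 (minus strand), and both of its start sites carried a summit. The summit 126 bp upstream of usp-RA had signal 812 and rank 3280, with ranks of 3101, 4203 and 3461 in the replicates. The summit 133 bp upstream of usp-RB had signal 420 and rank 6361, with ranks of 7145, 6251 and 6008. Both sites were present in every replicate and the order of the pair was the same in each. Per 10 kb of window usp had 1.90 summits, above 83.6% of protein-coding genes, though from 2 summits only.

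Eip75B, an early hormone-induced gene whose product binds heme and resembles the vertebrate Rev-erb receptors, had the most sites of the 10 genes. It spans 3L 17950953 to 18064696 (minus strand), and its 18 IDR summits exceed those of 99.8% of protein-coding genes, while 1.49 per 10 kb exceeds 80.0%. Replicates 1, 2 and 3 gave 22, 17 and 17, a mean of 18.7 ± 2.89 (SD, n = 3). All 3 replicates held 16 of the 18. The median signal of 858 was above that of EcR, 12 of the 18 were above the midpoint of the IDR list, and 5 were among its strongest 1023 rows (9.99% of the list).

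Those 5 lay between 17992331 and 18037685, and all but the site at 18037685 lay between 17992331 and 18009176. The strongest, at 18009176 in intron 3, had signal 3676 and rank 341, with ranks of 367, 292 and 389 in the replicates. The next lay at a promoter, 17 bp downstream of the start of Eip75B-RC, with signal 3075 and ranks of 456, 460 and 614. Intronic summits at 17992331, 18037685 and 18005238 had signals of 2741, 2586 and 2264. Each of the 5 was held by all 3 replicates. The site at 18037685 was nearest to the start of lncRNA:CR45922, a noncoding gene inside Eip75B, 595 bp away, and a separate summit 98 bp upstream of that start had signal 797.

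Of the 7 start sites of Eip75B, 3 had a summit within 500 bp. Besides Eip75B-RC these were Eip75B-RA, with a summit 185 bp downstream of signal 417, and Eip75B-RE, with one 426 bp upstream of signal 355 that replicates 1 and 2 held. The start of Eip75B-RF, the outermost, had a strong summit just past the limit, 519 bp upstream with signal 1248 and rank 2011. The starts of Eip75B-RB, Eip75B-RG and Eip75B-RD had none in the IDR list. In the pooled list these 3 starts had summits 361 bp downstream, 155 bp upstream and 74 bp upstream, at ranks of 27376, 21303 and 11330. The alternative starts of this gene therefore differed widely in the signal beside them, from rank 492 at Eip75B-RC to starts with no IDR summit within 500 bp.

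By the number of summits, the 3 genes outside the set most like Eip75B were ed, with 18 in its window, pyd with 17 and bbg with 17. More than 18 were found in 29 protein-coding genes, the highest being 46. Per 10 kb, ed had 1.97, pyd 1.52 and bbg 1.30, beside 1.49 for Eip75B.

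Eip78C, a hormone-induced relative of Eip75B, had few sites, and they were strong. It lies at 3L 21226609 to 21266503 (plus strand) and held 3 summits in the IDR list and 3 in every replicate. All 3 fell in intron 3, within 10 kb of one another, and all 3 were above the midpoint of the list. The strongest, at 21253898, had signal 7588 and rank 55, with ranks of 61, 48 and 55. The other two, at 21253159 and 21251583, had signals of 1971 and 929.

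None of the 3 start sites of Eip78C had an IDR summit, and the 29974 bp from the upstream edge of the window to the first site were free of them. A summit 28 bp downstream of Eip78C-RB was present in the pooled list at rank 14530. The coding gene whose start was nearest to all 3 sites was CG43218, which lies inside Eip78C, 4122 bp from the strongest. The assignment to Eip78C rests on position within its intron, as for the other intronic sites.

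Hr3, the fly ROR, which is induced after the hormone peak and switches on ftz-f1, lies on 2R at 10203995 to 10237348 (minus strand). It had 4 IDR summits, 4, 5 and 4 in the replicates, all intronic and all held by the 3 replicates. The strongest, at 10210816 in intron 1, had signal 2927 and rank 539, with ranks of 579, 597 and 475. The nearest start there was that of lncRNA:CR46322, 531 bp away, and the nearest Hr3 start was 17141 bp away. None of the 3 Hr3 start sites carried an IDR summit, and the closest summit to any of them was 2910 bp upstream of the start of Hr3-RA, which the coding gene CG46321 shares. Per 10 kb the gene had 0.991 summits, above 61.5% of protein-coding genes.

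Hr4, which encodes a receptor that acts in the timing of metamorphosis, held the strongest site of the 70. The gene lies at X 1941940 to 2007956 (plus strand) and its window had 12 summits, with 13, 12 and 13 in the replicates, more than 99.3% of protein-coding genes. At 1951911, in intron 2, the signal was 15035 in the IDR list, and it was 6241, 4411 and 4454 in replicates 1, 2 and 3. The ranks were 4 in the IDR list and 5, 4 and 4 in the replicates, so the position near the top was the same in every list.

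This site was not alone. A summit at 1948713 had signal 6230 and rank 83, with ranks of 78, 86 and 106, and one at 1947757 had signal 3281 and rank 423, with ranks of 439, 516 and 361. All are in intron 2, within 10 kb downstream of the first start. The densest 10 kb of the window, from 1940153 onward, held 6 summits. That stretch ends before the strongest site, and its first summit is at the promoter of the neighbour CG3857. The nearest start to the strongest site was that of the pseudogene CR46447, 2569 bp away, and the nearest coding start was that of Hr4, 9971 bp away. Past 1969161 there was no IDR summit for 40.4 kb, a stretch that includes the start of Hr4-RE and Hr4-RF.

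The first start of Hr4, shared by 7 transcripts, had a weak site by comparison. Its summit lay 64 bp upstream with signal 367 and rank 7187, and the replicates ranked it 5960, 9842 and 10157. All of these are within the strongest 10239. In the same window 3 promoter summits belonged to neighbours, at 113 bp upstream of CG3857, 203 bp upstream of PIG-K and 189 bp upstream of lncRNA:CR45478. Their signals were 770, 860 and 698.

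**Figure D3:**
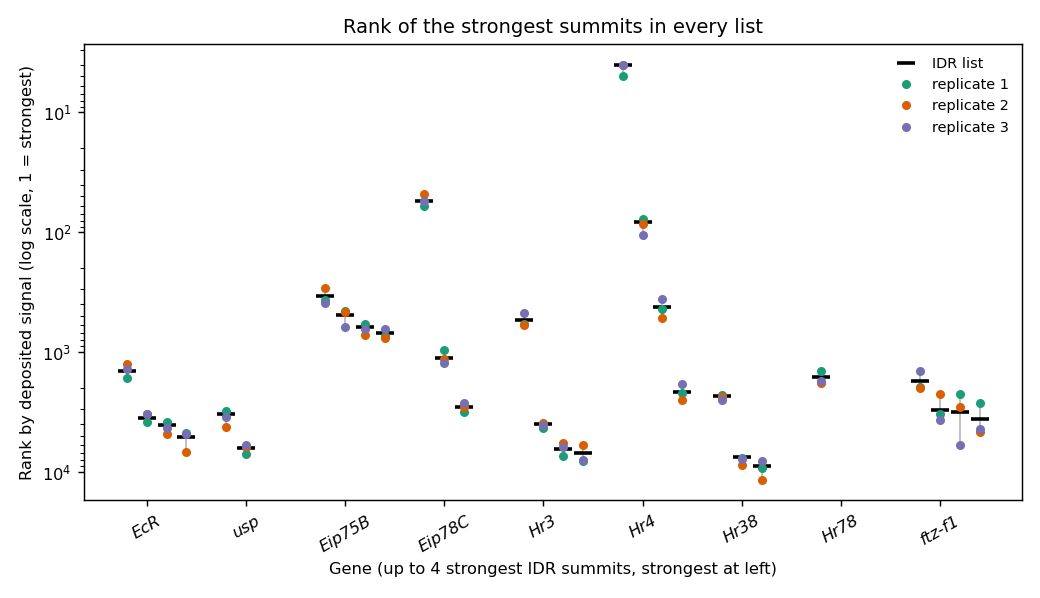
Rank by deposited signal of up to 4 strongest IDR summits of each gene, strongest at left, with rank 1 at the top of a log axis. Black bars give the rank in the IDR list and dots the rank of the overlapping peak in each replicate. The strongest Hr4 summit ranks 4, 5, 4 and 4 and the strongest Eip78C summit 55, 61, 48 and 55, while weaker summits of ftz-f1 spread more widely.

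The product of ftz-f1 is an orphan receptor of the NR5A class that makes tissues competent for the next hormone pulse. The gene lies at 3L 18750607 to 18801309 (minus strand) and held 13 summits, with 14, 11 and 13 in the replicates, a mean of 12.7 ± 1.53 (SD, n = 3). With 2.25 per 10 kb it was the densest of the 10 genes, above 87.8% of protein-coding genes. Of the 13 summits 12 were intronic and 10 were held by all 3 replicates. None was among the top 1023 rows of the list, where Eip75B had 5 and Hr4 had 3.

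The strongest ftz-f1 site, at 18756685 in intron 3, had signal 1384 and rank 1760, with ranks of 1970, 1987 and 1444. A group of 3 summits near 18791293 in intron 2 lay within 567 bp, with signals of 849, 328 and 880. The middle one was overlapped only in replicate 1 and by no peak of the whole lists of replicates 2 and 3. The start of ftz-f1-RC and ftz-f1-RD had a summit 75 bp upstream with signal 387 and rank 6824, where replicates 1, 2 and 3 ranked the overlapping peak 10253, 4794 and 7173. Replicate 1 missed the limit of 10239 there by a small margin. The outermost start, of ftz-f1-RB, had its nearest IDR summit 1282 bp downstream.

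Hr39, which encodes a relative of the ftz-f1 product, was the only gene of the 10 with no IDR summit. It lies at 2L 21237250 to 21259675 (plus strand) with a window of 29.4 kb. The pooled list of 30000 had 10 summits there, the best at rank 11376 in an intron. The whole lists of replicates 1, 2 and 3 also had a peak at that intron site, at ranks of 13074, 11428 and 12115. The best peaks of replicates 1, 2 and 3 ranked 9227, 9434 and 12115. Replicates 1 and 2 placed these peaks 447 and 593 bp downstream of the start site. The pooled list had one 572 bp downstream at rank 12959, so weak signal was listed near the start although it did not reach the IDR list.

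Hr38, the fly member of the NR4A class, whose product can pair with Ultraspiracle, lies at 2L 20683462 to 20714588 (minus strand). It had 3 IDR summits and 4, 4 and 3 in the replicates. The strongest was in intron 1 at 20700773, with signal 1111, rank 2313 and replicate ranks of 2307, 2369 and 2496. The other two lay 1658 and 2321 bp upstream of the start site, with signals of 286 and 347. At the start site itself the pooled list had a summit 24 bp upstream at rank 10435, just beyond the IDR list.

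Hr78, which encodes an orphan receptor needed for the hormone response, is a short gene at 3L 21494019 to 21497494 (minus strand). Its only IDR summit, of signal 1500 and rank 1607, lay 114 bp downstream of the start of Hr78-RE and within 500 bp of all 3 start sites. The replicates ranked it 1440, 1812 and 1738. It was the summit of highest A/T content among the 70, with the sequence given above.

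The whole lists of 30000 peaks add weaker sites in every gene. The windows held 210 summits of the pooled list and 221, 224 and 209 of replicates 1, 2 and 3. Eip75B led again, with 64 pooled summits and 73, 67 and 66 in the replicates, followed by EcR with 43 pooled and 51, 48 and 41. The genes differed in how much of this reached the IDR list, from 12 of 22 pooled summits in Hr4 and 13 of 29 in ftz-f1 to 14 of 43 in EcR, 18 of 64 in Eip75B, 3 of 12 in Eip78C and 0 of 10 in Hr39. In EcR, usp, Eip75B, Hr3, Hr4, Hr38 and ftz-f1 the first pooled summit past the IDR list ranked close behind it, between 10240 in Eip75B and 10643 in Hr4, with signals from 235 to 246.

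Across the set, 6 of 10 genes were occupied (EcR, usp, Eip75B, Hr4, Hr78 and ftz-f1), beside the 22.9% of protein-coding genes. The replicates had 6, 7 and 6 occupied genes, and 5 genes were occupied in every replicate when each list was scored by its own summits. The share of all protein-coding genes in the replicates was 23.7% ± 1.03 (SD, n = 3). Genes with more start sites have more chances to be called. Of the 10 genes, 6 have at least 3 separate start sites, and 4 of these were occupied. Among all 1047 protein-coding genes with at least 3 start sites, 55.6% were occupied. With fewer start sites, 2 of 4 receptor genes and 20.2% of 12898 genes were occupied.

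Counted by start site, with starts of a gene closer than 50 bp merged, 12 of 29 had a summit within 500 bp, against 21.5% of 19248 start sites of protein-coding genes. The 12 rest on 10 summits, since 1 summit served all 3 starts of Hr78. Of the 10 summits, 6 lay upstream of the nearest own start site.

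Of the 70 summits 51 were intronic, or 72.9% (interval 61.5 to 81.9), against 44.5% of all IDR summits and 50.9% of those in the windows of protein-coding genes. The replicates gave 72.7%, 69.6% and 72.7%, a mean of 71.7% ± 1.83 (SD, n = 3). Promoter summits, within 500 bp of any start site, made up 14 of the 70, or 20.0% (interval 12.3 to 30.8). The share was 31.2% of all IDR summits and 35.2% of those in the windows of protein-coding genes. The replicates gave 22.2% ± 3.42 (SD, n = 3). Windows over 25 kb belong to 8 of the 10 genes, and these shares were not compared with those of other long genes. Another 4 summits were intergenic and 1 lay in a 5′ UTR of EcR. None fell in coding sequence, which a count of 0 of 70 bounds at 5.20% by the Wilson interval. All IDR summits had 0.146% there.

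In 40 of 70 sites the nearest own start was more than 5 kb away (57.1%), against 19.4% of the summits in all protein-coding windows and 49.4% of those in windows over 25 kb. In 41 of 70 (58.6%) an own start was the nearest of any gene, against 44.4% and 56.3%. With noncoding genes left aside, the nearest start belonged to the receptor gene in 54 of 70 (77.1%), against 50.4% and 66.1%. In these backgrounds a summit counts once for each gene whose window holds it. The exceptions included all 3 sites of Eip78C and 2 of the 4 sites of Hr3.

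In signal the 70 sites resembled the list as a whole, apart from a few strong ones. Their median signal was 616 (quartiles 389 and 1165), and that of all IDR rows was 526 (quartiles 340 and 1027). The top 1023 rows of the list held 10 of the 70 (14.3%, interval 7.95 to 24.3), against 9.99% of the list by definition, and 9 of these 10 were intronic. They were in 4 genes, Eip75B, Eip78C, Hr3 and Hr4, while 11.2% of protein-coding genes had such a summit in the window. The strongest 100 rows included 3, of which 2 are in Hr4 and 1 in Eip78C.

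The replicates held these sites about as often as others. All 3 held 55 of 70 (78.6%, interval 67.6 to 86.6), against 78.3% of IDR rows, while 12 were held by 2 and 3 by 1. The 3 held by 1 replicate were 2 in EcR and 1 in ftz-f1. The overlapping peak can be that of a neighbouring summit. The Eip75B site at 18065416 counts as held by all 3, though its closest peaks in replicates 2 and 3 ranked 12906 and 10897. With a replicate summit required within 100 bp the share of the 70 was 71.4%, and the list was not scored that way. For the 69 sites overlapped in every replicate's whole list, the 3 replicate summits spanned a median of 38.0 bp, as over all IDR rows. The log2 signals of these 69 sites gave Pearson's r of 0.883 for replicates 1 and 2, 0.898 for 1 and 3 and 0.890 for 2 and 3. This is a description across sites that share their libraries and 1 control alignment.

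Some sites came close together, in a share whose interval includes that of the whole list. Another IDR summit lay within 1000 bp of 27 of the 70 (38.6%, interval 28.0 to 50.3), against 31.5% of all IDR rows. The median distance to the next summit was 1387 bp, against 1839 bp over the list. The windows of these genes are long and hold several sites, and that was not compared with genes of the same number of sites.

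The windows of 50 bases to each side of the 70 summits had a median of 68.3% A or T (range 34.7% to 83.2%), beside 70.3% over all IDR rows, while sequence 300 bp to either side of the 70 had a median of 55.0%. In 53 of 70 (75.7%) the summit was richer than the mean of its own flanks. Over all IDR rows the flanks had a median of 53.5%, and 8699 of 10239 summits were richer than theirs. By gene the median was highest at the single site of Hr78, at 83.2%, and at the 4 sites of Hr3, at 75.8%. It was lowest in EcR, at 60.9%, and ftz-f1, at 61.4%.

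Sites of low A/T content were weak and took a share 2.29 times that of the whole list. Under 50% A or T were 8 of the 70, or 11.4% (interval 5.91 to 21.0), against 512 of all 10239 IDR rows (interval 4.59% to 5.44%). The difference was not tested. Their median signal was 368, against 681 for the other 62, and all 3 replicates held 4 of 8 and 51 of 62. Over the whole list the same split gave median signals of 355 and 543, and all 3 replicates held 64.8% and 79.0%. Of these 8, 4 were sites at an own start, namely EcR-RA (44.6%), Eip75B-RA (45.5%), the first start of Hr4 (38.6%) and ftz-f1-RC and ftz-f1-RD (34.7%). Over the whole list 56.6% of the rows under 50% were promoter summits, near the 4 of 8 here. The remaining 6 of the 10 own promoter sites, such as those of usp, Hr78 and Eip75B-RC (72.3%), had 50% or more.

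**Figure D4:**
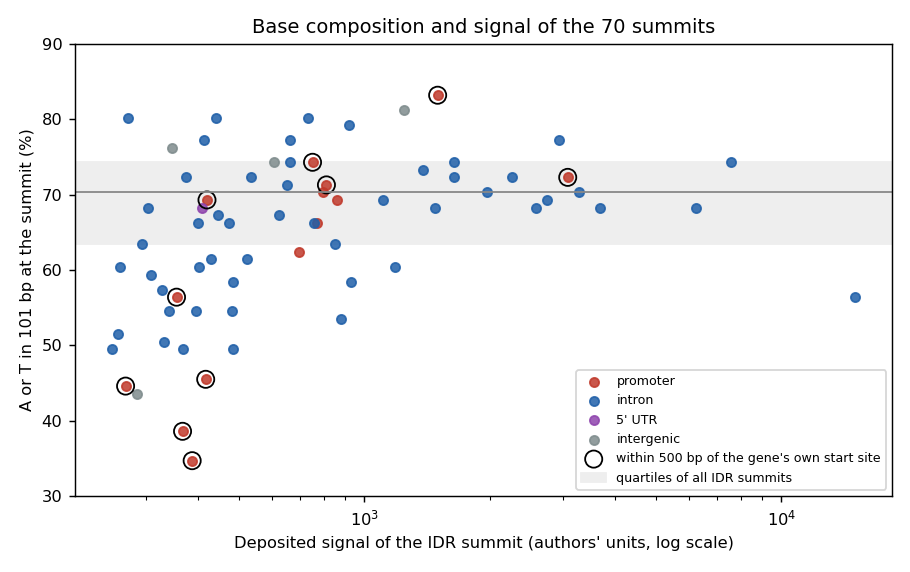
Percent of A or T at each of the 70 summits (the summit and 50 bases on each side) against its deposited signal on a log scale. Colours give the location, rings mark summits within 500 bp of a start site of the gene itself, the line is the median of all IDR summits (70.3%) and the band spans their quartiles. The 4 rings below 50% all have signals under 420, and the Hr4 intron stands alone at signal 15035 with 56.4%.

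Motifs were searched as letters on both strands of the same windows, and a match is only a description of the sequence. The core hexamer of nuclear receptor response elements, AGGTCA, was present in 1 of 70 windows (1.43%), an intronic ftz-f1 site, and in 1.82% of all IDR windows. The variant GGGTCA was in none and in 1.14%, and AGTTCA was in 5 (7.14%) and in 5.82%. The extended element CAAGGTCA, which the product of ftz-f1 prefers, was in none of the 70 and in 0.137%, and CAAGGCCA was in 1, an EcR intron site, and in 0.107%. GTCANTGAC, the core of the inverted repeat that EcR and Ultraspiracle bind, was in none of the 70 and in 0.0879%. Shares of the 70 thus lay close to those of the list for these motifs, with at most 5 windows behind any of them.

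GAGAG, a core of GAGA factor sites, had the largest difference in share from the list, in 16 of 70 windows (22.9%) and in 9.63% of all IDR windows. It was also frequent around the sites, in 15.7% of the flanks. The matches were in ftz-f1 (6), Eip75B (5), EcR (3), Hr3 (1) and Hr4 (1). They included 6 of the 14 promoter sites, or 42.9%, against 11.3% of the 3194 promoter rows of the list, and all 6 were at own starts. They also included 5 of the 8 windows under 50% A or T, against 30.5% of the 512 such rows of the list. The promoter sequences of Hr4 and ftz-f1 shown above are among them. In windows of 50% or more the counts were 11 of 62, or 17.7%, against 8.53% over the list.

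The run AAAAAA was in 21 of 70 windows and in 31.8% of the list. ATATTA, which was chosen as the sequence of 6 bases most enriched at the IDR summits outside these windows relative to their flanks, was in 15 of 70 (21.4%) and in 10.7% of the 70 sites' flanks. Outside the windows the shares were 23.7% and 5.72%. It was found at the strongest sites of Eip78C, Hr38, Hr78, ftz-f1, EcR and Hr3, and not at those of Hr4, Eip75B and usp. TATCGATA, the DRE motif, was in none of the 70 and in 0.508% of the list.

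Among 11 other nuclear receptor genes of the fly 4 were occupied (36.4%), against 22.9% of protein-coding genes. At these 4 the strongest promoter signals were 3100 at Hnf4, 1861 at Hr96, 1309 at ERR and 960 at eg. Of the 11, 7 had any summit in the window, 14 in all, against 50.5% of protein-coding genes. Hr51, Hr83, svp, tll, dsf, kni and knrl were not occupied. These 11 genes had a median of 1.00 summit, as did all protein-coding genes, beside 3.50 for the 10 genes. Their windows were 8270 to 51049 bp long. Those of the 10 genes were 10476 to 120744 bp long, with a median of 43624 bp, and these counts were not scaled by length. The difference between the lists was not tested.

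Of 14 genes whose products act with the ecdysone receptor or bring in its ligand, 5 were occupied (35.7%), against 22.9% of protein-coding genes. The coactivator gene tai had a promoter signal of 621 and 14 summits in its window, the same number as EcR. The coactivator gene Ncoa6 had 548, Alien, a corepressor gene, 958, the chaperone gene Hsp83 929, and EcI, the ecdysone importer gene, listed as Oatp74D in the annotation, 257. Smr, trr, rig, bon, mbf1, Med24, E(bx), Iswi and Utx were not occupied. The single summit in the Med24 window is the one at the ERR promoter, since those genes are neighbours. In all 10 of the 14 had a summit in the window, against 50.5% of protein-coding genes. They held 40 summits together, of which 14 were in tai, whose window is 90434 bp long.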

How the data were processed

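Peaks of CG8159-GFP ChIP-seq from 3 replicates of whole pupae were used as deposited. Per the deposited file lists the authors called peaks on dm6 for each replicate and on the pooled replicates against 1 control alignment, and derived the IDR list from them. The caller is not given in the sources used here, nor is the aligner. The deposited signal column ranked peaks within a list. The deposited −log10 q-value was not used, since 8085 of 10239 IDR rows shared its maximum, and the deposited summit column, another measure, gives the position of each peak. Each row was counted as 1 peak.

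Genes and start sites came from Ensembl release 115 and sequence from the RefSeq copy of assembly release 6, with transposable elements left out. A summit within 500 bp of any start site was a promoter summit, and any other was placed in UTR or coding sequence before other exons, introns and intergenic sequence. Replicates were compared through their 10239 strongest peaks with an overlap of 1 bp. With 1 group there is no comparison of conditions and no test, and values are given beside the same value over all genes or peaks. The 10 genes and the gene lists were chosen with earlier results of these data known. Named were the 10 genes, the genes nearest to or overlapping their strongest sites, the 3 genes closest to the leading one in number of summits, and all genes of the other lists. Neighbours with a promoter summit in a window or a shared start were singled out after their values were seen, and the sequences shown are part of those taken at the strongest site and strongest own promoter site of each gene. In the lists 3 symbols (EcI, Med24 and Alien) were matched through older names. Python 3.11.15, pandas 2.3.3, numpy 2.4.6, scipy 1.17.1 and matplotlib 3.10.9 were used. Signed distances, window membership, the promoter class and the overlap of 1 bp were tested on simulated peaks, and the other steps were not. Alternatives were other promoter distances, windows, lists, overlaps, sequence lengths and replicates left out.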

Additional observations from a re-analysis of the deposited data

How the results depend on the processing

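No paired analysis was possible because there is 1 group. Of 53 alternative values of the counts and shares over all 10 genes, 38 stayed close to the reported one and 15 moved. A count was called close up to a ratio of 1.5, so 4 or 9 occupied genes in place of 6 were among the 38. Other values had to stay within the SD of the replicates, or within the Wilson interval for the share held by all replicates. The strongest part of the IDR list (5119 rows) and the longer pooled list change the number of summits by construction, to 37 (7.18 per 100 kb) and 210 (40.7 per 100 kb). The share held by all replicates was 100% and 29.5% there, and the cause was not tested. Taking 5119 peaks of each replicate gave 48.6% held by all 3, and 20478 gave 97.1%. The promoter share was 28.6% with a distance of 1000 bp and 14.8% within the genes alone, where the intron share was 83.6%. Median A/T was 64.7% over 100 bases to each side. Without 1 replicate, with only IDR rows held by both others, the density was 11.3 to 11.6 per 100 kb and 5 to 6 genes were occupied. The number of occupied genes was 4 in the strongest rows, 9 in the pooled list and, in an alternative chosen after seeing the data, 5 when all 3 replicates had to hold the site. Of 80 values for single genes 22 moved, and of 10 for motifs 3. Read depth is unknown, so a site missing from the IDR list, as in Hr39, says only that no peak was kept there.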
